A study of Homo sapiens with 36 samples.

Results

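The 10 genes of the transforming growth factor beta (TGF-β) pathway described here are TGFB1, TGFB2, TGFBI, TGFBR1, TGFBR2, SMAD3, SMAD7, INHBA, SKIL and LTBP1, out of 20033 protein-coding genes of GENCODE release 44 on chromosomes 1 to 22, X and Y. They were chosen by name. For each gene, the peaks of all 16 deposited lists were collected within 3 kb of any annotated transcription start site, and the peaks of the Jun family within 100 kb. ChIP-seq, which sequences the DNA that an antibody pulls down from fixed chromatin, was performed in A549, a human lung adenocarcinoma line, and in BEAS-2B (B2B), a bronchial epithelial line immortalized with a viral antigen and used as the non-cancerous comparison. No treatment is given for either line in the sample labels. Each line is a single cultured line, so differences between the lines cannot be told apart from differences between the individuals and tissues they came from. RNA polymerase II (pol II), H3K4me3, H3K27ac, the Mediator subunit Med1, JunB, Jun and JunD were profiled in both lines, and CTCF and the cohesin subunit Rad21 were analysed here in B2B only. Each target had 2 replicates, which the authors merged before peak calling. There is therefore no replicate error behind any value below and no test between the lines was possible. Counts are set beside the same counts over all protein-coding genes, and 95% Wilson intervals cover counting error only.

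TGF-β ligands are secreted in a latent form, bind a type II receptor that recruits and phosphorylates a type I receptor, and signal through SMAD proteins that carry the signal into the nucleus. SMAD7 and the co-repressor SKIL restrain the pathway and are themselves induced by it. In epithelial cells the pathway is known both for halting growth and for driving the change towards a mesenchymal state. JunB, Jun and JunD are subunits of the transcription factor AP-1, which binds the sequence TGACTCA or its reverse complement TGAGTCA and, at some sites, the longer TGACGTCA. SMAD proteins and AP-1 are known to act together at many target genes.

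The sequences below lie under the Jun summits on which the binding results turn. For each gene, regions were considered in which JunB, Jun and JunD were all called in both lines, or all called in 1 line with no Jun-family peak in the other. The one with the highest summed fold enrichment was taken, and 50 bases on each side of its Jun summit are shown. INHBA had no such region. The TGFBR2 start site was outside that choice because B2B lacked JunD there, although its summed fold in A549 (94.0) was above that of the region taken (87.1), and it was added after its values were seen. Bases are from hg38, plus strand, 5′ to 3′, and capitals mark the short AP-1 motif or TGACGTCA. Where the window touched an untranslated region, 30 bases around the motif are shown.
TGFB1, A549 alone, chr19:41263993-41264093: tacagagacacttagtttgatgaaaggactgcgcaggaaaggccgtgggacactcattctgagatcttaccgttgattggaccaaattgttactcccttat
TGFB2, both lines, chr1:218496710-218496810: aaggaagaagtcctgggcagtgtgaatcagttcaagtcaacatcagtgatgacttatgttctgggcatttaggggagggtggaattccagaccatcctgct
TGFBI, both lines, chr5:136053784-136053884: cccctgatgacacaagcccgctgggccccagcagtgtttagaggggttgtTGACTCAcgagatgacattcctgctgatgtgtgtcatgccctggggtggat
TGFBR1, B2B alone, chr9:99030232-99030332: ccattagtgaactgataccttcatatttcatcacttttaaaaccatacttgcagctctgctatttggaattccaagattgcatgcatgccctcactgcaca
TGFBR2, both lines, chr3:30597394-30597494: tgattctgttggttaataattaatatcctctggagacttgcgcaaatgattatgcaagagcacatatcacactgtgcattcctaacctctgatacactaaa
TGFBR2 start site, chr3:30606584-30606613: ttgaagttgagTGAGTCActcgcgcgcacg
SMAD3, both lines, chr15:67024514-67024614: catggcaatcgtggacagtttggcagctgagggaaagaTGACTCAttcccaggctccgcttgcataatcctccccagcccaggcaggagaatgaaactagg
SMAD7, both lines, chr18:48873453-48873553: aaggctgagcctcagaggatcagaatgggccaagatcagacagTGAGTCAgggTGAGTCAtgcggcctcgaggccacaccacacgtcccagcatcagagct
SKIL start site, A549 alone, chr3:170357650-170357679: cgaggactcggTGACGTCAgagggctgtgt
LTBP1, both lines, chr2:33069999-33070099: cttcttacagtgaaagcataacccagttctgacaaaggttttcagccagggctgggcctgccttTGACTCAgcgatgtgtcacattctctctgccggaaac

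In 6 of these 10 windows a motif lay near the summit. Over the whole Jun lists, 43.6% of the A549 summits and 40.7% of the B2B summits held either motif within 50 bp. The 10 windows were picked for high fold and are too few to set their count apart from these shares. The centre of TGACTCA was 3 bp from the TGFBI summit, 9 bp from the SMAD3 summit and 17 bp from the LTBP1 summit. The SMAD7 region held 2 copies of TGAGTCA, the nearer one 4 bp from the summit. At the TGFBR2 start site, TGAGTCA was centred 4 bp from the summit and ended on the base at which the gene begins. At the SKIL start site, the longer TGACGTCA was centred 5 bp from the summit. These letters were not found in the windows of TGFB1, TGFB2 and TGFBR1, nor in that of the upstream TGFBR2 region. Some of the genes have several RefSeq promoter windows of 300 bases (GRCh38.p14). A TGFBR2 window and that of an alternative SMAD3 start held TGAGTCA, and a window each of SKIL and LTBP1 held TGACGTCA. The TGFBR2 and SKIL copies are those described above. Among all 35116 such windows, 4.95% held TGACTCA or TGAGTCA and 1.85% held TGACGTCA. These shares are per window and not per gene, so the genes are not set against them.

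Facts of the lists bear on every count. The H3K27ac list of A549 ends on chromosome 13, both Med1 lists end on chromosome 15 and the pol II list of A549 ends on chromosome 20. TGFB1, SMAD3 and SMAD7 lie past those ends for H3K27ac of A549 and for Med1, which leaves 7 genes there, and all 10 are covered elsewhere. Read pileups at summits were recovered from the deposited fold enrichments and p-values, and their list medians lay between 19.0 and 108 reads. The number of reads behind a list was not stated in the sources used here, so pileups of the lines are set side by side without a correction for depth. The local background of the peak caller near start sites was higher in B2B, with medians of 22.5 reads against 2.49 in A549 for pol II, 36.0 against 3.56 for H3K4me3 and 19.8 against 2.19 for H3K27ac. The lowest backgrounds of these lists were close, 1.67 against 1.65, 2.48 against 2.43 and 1.44 against 1.25 reads at the first percentile. Apart from picking the region or summit to name, fold enrichment is therefore not compared between the lines. Its place within its own list is given as a percentile, with the pileup and background beside it. The strongest peak of a gene is the one with the highest fold enrichment in its list. As a check of the labels, CDKN2A and CDKN2B, which are known to be deleted in A549, held no peak of any A549 list, and both held peaks in B2B. As a check of the cell types, genes of several types were scored by H3K4me3 peaks. Such peaks lay at 4 of 5 epithelial genes in both lines, with KRT19 lacking, and at 5 of 5 mesenchymal genes in both. They lay at 1 of 6 blood and endothelial genes in A549 (PTPRC) and 0 in B2B. Alveolar type II genes held such peaks at 4 of 6 in A549 and 3 of 6 in B2B, with LAMP3 in A549 alone. Basal airway genes held them at 1 of 4 in each, but at different genes, TP63 in A549 and KRT17 in B2B. The genes also had more annotated starts than most, with a median of 8.00 against 5.00 over all protein-coding genes, so the 3 kb windows spanned a median of 22 kb against 12.1 kb.

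At the start sites, the promoter marks were present at nearly all of the genes in both lines. H3K4me3, a mark of active promoters, was called at 10 of 10 genes in A549 and in B2B, where the shares over all genes were 73.7% and 62.7%, with 12.9% of genes marked in A549 alone and 1.87% in B2B alone. Pol II was called at 10 genes in A549 and 8 in B2B, beside 69.6% and 51.9% of all genes. INHBA, which encodes a subunit of activin, and LTBP1, which holds the latent ligand in the matrix, had pol II peaks in A549 alone, a pattern seen at 19.5% of all genes, and 1.84% had the reverse. H3K27ac was called at 7 of 7 covered genes in A549 and 6 in B2B, beside 73.5% and 64.3%, and LTBP1 was again the gene marked in A549 alone (11.2% of all genes, against 2.04% in B2B alone). Med1 was called at 6 of 7 genes in each line, beside 54.7% and 61.1%. LTBP1 had Med1 in A549 alone (3.86% of all genes) and INHBA in B2B alone (10.3%). Of the other pathway genes, 46 of 48 had H3K4me3 in A549 and 40 of 48 in B2B, and pol II was called at 40 and 31 of 44.

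**Figure D1:**
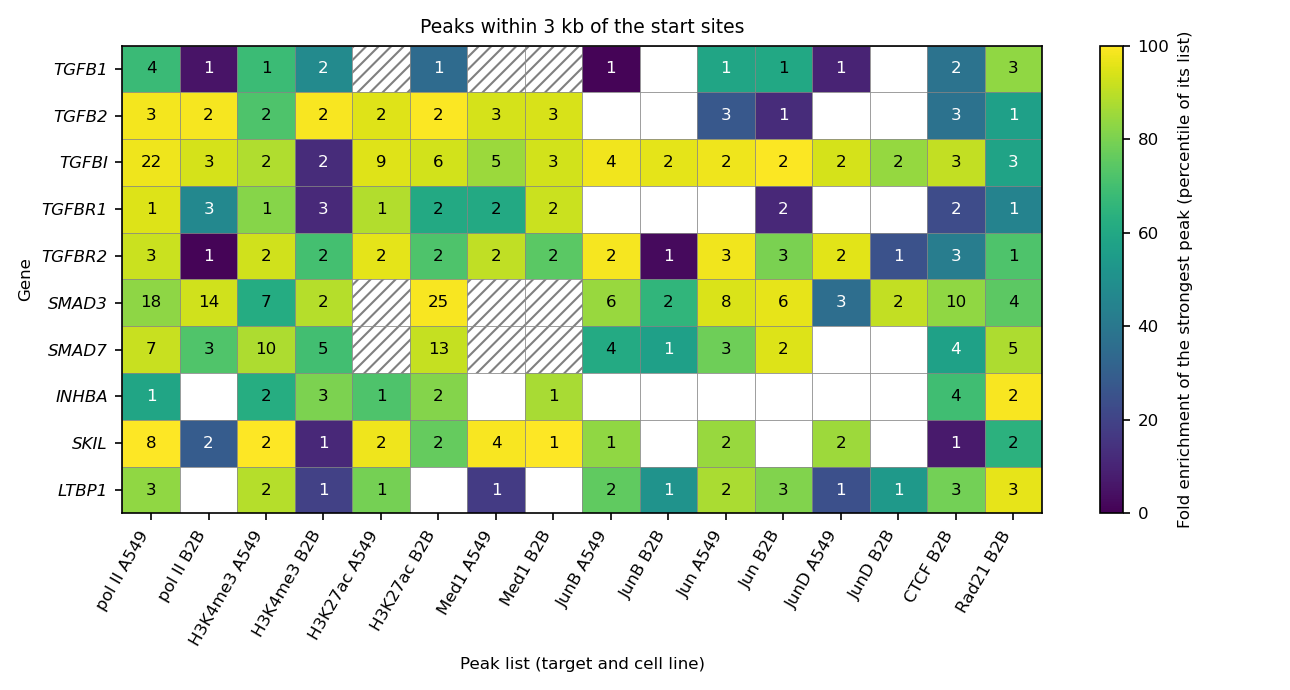
Peaks within 3 kb of the start sites of the 10 genes (rows) in each of the 16 peak lists (columns, target and cell line). Numbers count the peaks, colour gives the percentile of the strongest peak's fold enrichment within its own list, white cells hold no peak and hatched cells lie past the end of the list. H3K4me3 was called at all 10 genes in both lines, whereas the SKIL cells for JunB, Jun and JunD are filled in A549 and white in B2B.

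SKIL, the co-repressor of SMAD proteins, had the highest fold of the genes for pol II, H3K4me3, H3K27ac and Med1 in A549. Its pol II peak there ranked 21 of 45938 by fold enrichment, with 312 reads over a background of 1.65. The B2B pol II peak had 183 reads over a background of 48.5 and stood at percentile 28.7 of its list. For H3K4me3, SKIL ranked 85 of 32801 in A549, with 224 reads over 3.0, and stood at percentile 11.1 in B2B, with 160 reads over 76.8. H3K27ac gave 340 reads over 2.16 in A549 (percentile 97.5) and 314 reads over 40.1 in B2B (percentile 76.2). Pol II and H3K4me3 thus stood low in their B2B lists and H3K27ac did not, and the part of the background in this was not tested. Med1, whose backgrounds were low in both lines, was alike at SKIL, with 81 reads over 1.24 in A549 (rank 156 of 20026) and 83 reads over 1.31 in B2B (rank 72 of 20605).

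Among the ligands, TGFB2 stood high in the pol II lists of both lines. Its pol II peak had 241 reads in A549 and 240 in B2B, at percentiles 98.2 and 98.7. Its H3K27ac peak in A549 had 238 reads and stood at percentile 95.2. The B2B H3K27ac peak with the highest fold, at percentile 99.5 with 149 reads over 5.99, lay farther into the gene. The B2B peak with the most reads, 194 over 26.3, lay nearer to the A549 peak and stood at percentile 71.5. TGFB1, the most widely expressed ligand of the family, had 118 pol II reads over 8.03 in A549 and 88 over 36.8 in B2B. INHBA was the weakest of the 10 in pol II in A549, with 22 reads, and had none called in B2B. Its H3K4me3 peaks held 82 and 69 reads and its H3K27ac peaks 80 and 67 reads in A549 and B2B. INHBA also had the highest-ranked Rad21 peak of the genes, at percentile 99.1 of the B2B list with 246 reads, 534 bp downstream of the 5′ end of the gene, beside a CTCF peak of 218 reads at 547 bp. LTBP1 had the most marks called in A549 alone, among the lists that cover each gene. In A549 its 5′ end carried 132 reads of pol II, 182 of H3K4me3 and 181 of H3K27ac, and a weak Med1 peak of 16 reads. In B2B only H3K4me3 of these marks was called, with 107 reads over a background of 45.7. Whether a background of that height kept other marks from being called in B2B was not tested.

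Both receptors were marked in both lines. TGFBR1, the type I receptor, had 218 pol II reads over 2.08 in A549 and 210 over 44.1 in B2B. TGFBR2, the type II receptor, had 226 over 2.84 in A549 and 74 over 38.2 in B2B, where the peak stood at percentile 0.832 of its list. H3K27ac at TGFBR2 gave 310 reads in A549 and 245 in B2B. Its H3K27ac peaks stood at percentiles 96.0 and 71.9. The SMAD genes are spread over many starts. SMAD3, which carries the signal to the nucleus, had 18 pol II peaks within 3 kb of its starts in A549 and 14 in B2B, and 25 H3K27ac peaks in B2B. SMAD7, the inhibitory SMAD, had 10 H3K4me3 peaks in A549 and 5 in B2B. TGFBI, a secreted matrix protein known as a target of the pathway, had its strongest pol II peak at the gene's 5′ end in A549 (227 reads, 14 bp downstream). In B2B the peak with the highest fold lay 24728 bp downstream, near an internal start, with 64 reads over 4.04, while the peak with the most reads again lay at the 5′ end, 27 bp downstream, with 204 reads over 69.6.

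**Figure D2:**
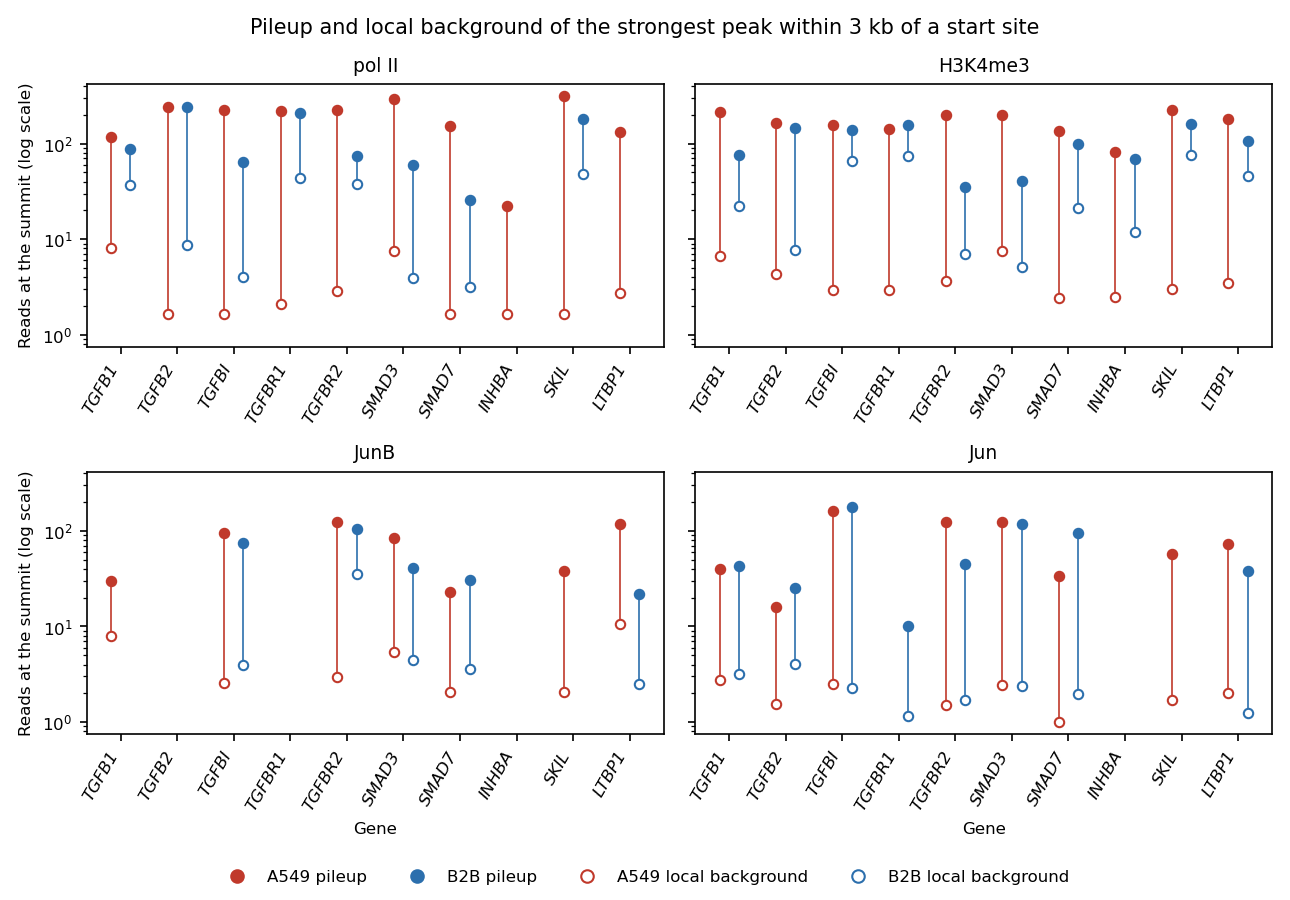
Reads at the summit (log scale) of the peak with the highest fold enrichment within 3 kb of a start site of each gene, for pol II, H3K4me3, JunB and Jun in A549 (red) and B2B (blue). Filled points give the pileup and open points the local background of the same peak, and genes without a peak have no point. For pol II and H3K4me3 the open points of B2B reach 48.5 and 76.8 reads at SKIL, while those of A549 reach at most 8.03 and 7.54 reads.

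Jun-family peaks lay at the start sites of most of the genes in A549, and JunB and JunD were called at fewer in B2B. JunB was called at 7 of 10 genes in A549 and 5 in B2B, beside 31.1% and 5.28% of all genes. TGFB1 and SKIL had JunB in A549 alone, a pattern of 26.7% of all genes, and no gene had it in B2B alone (0.953%). With both JunB lists held to the same length, the difference was gone, with 5 genes in each line, SKIL in A549 alone and SMAD7 in B2B alone. Jun was called at 8 genes in each line, beside 38.2% and 25.4%, with SKIL in A549 alone (19.3% of all genes) and TGFBR1 in B2B alone (6.50%). The TGFBR1 peaks held 10 and 12 reads, at percentiles 11.2 and 3.08, and lay 23847 and 39909 bp into the gene. TGFBR1 was no longer called at a −log10 q of at least 5, with the 5′ end alone or with lists of equal length. SKIL stayed in A549 alone under each of these settings. JunD was called at 6 and 4 genes, beside 17.8% and 3.21%, again with TGFB1 and SKIL in A549 alone (16.2%) and none in B2B alone (1.57%). INHBA had no Jun-family peak at any start site in either line. Of 48 other pathway genes, JunB was called at 25 in A549 and 3 in B2B, Jun at 32 and 20, and JunD at 17 and 3. ID1, a known target of the related BMP signals, was among the 22 genes with JunB in A549 alone.

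The counts also depended on where in the gene the peaks lay. With the 5′ end of the gene taken as the only start, JunB was called at 6 genes in A549 (TGFB1, TGFBI, TGFBR2, SMAD3, SMAD7 and SKIL) and at 1 in B2B (TGFBR2), where 24.2% and 1.84% of all genes held a peak. Jun was then called at 5 and 3 genes, beside 30.0% and 13.9%, and JunD at 3 and 0, beside 14.5% and 0.754%. Over all genes the shares at the 5′ end were also lower in B2B, so this difference is not read as a trait of these genes. Peaks called in both lines mostly lay at internal starts. In B2B the JunB background was 35.3 reads at the TGFBR2 5′ end. At the strongest internal peaks of TGFBI, SMAD3, SMAD7 and LTBP1 it was 3.98, 4.48, 3.62 and 2.49 reads. The part of the background in where peaks were called was not tested. In TGFBI, 2 internal starts carried all 3 proteins in both lines. The first lay 24846 bp into the gene, with 163 Jun reads in A549 and 167 in B2B and 122 and 74 JunB reads. The second lay 29709 bp into the gene, with 126 and 180 Jun reads. In SMAD3, Jun gave 123 reads in A549 and 119 in B2B over an internal start, 61942 and 61931 bp into the gene (percentiles 94.3 and 96.3), and JunB and JunD were called there in both lines. In LTBP1, JunB, Jun and JunD were called in both lines at a start far into the gene, with JunB at 328942 and 328944 bp and with 119 JunB reads in A549 and 22 in B2B. TGFB1 was bound by Jun in both lines 13730 and 13754 bp into the gene, with 40 and 43 reads.

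Among these genes, SKIL and TGFBR2 had the only 5′ ends at which all 3 proteins were called in A549, and none had all 3 in B2B. The share of all protein-coding genes with all 3 at the 5′ end was not computed. Over all genes, JunD was called at 14.5% of 5′ ends in A549 and 0.754% in B2B. The difference between the lines is therefore not read as a trait of these genes. At the SKIL start, JunB gave 38 reads over 2.05, Jun 58 over 1.68 and JunD 24 over 1.93 in A549, at percentiles 83.4, 84.7 and 85.4 of their lists. In B2B no Jun-family peak lay within 3 kb, although pol II, both histone marks, Med1, CTCF and Rad21 were called there. Other B2B lists had backgrounds of 28.5 reads (CTCF) and 48.5 reads (pol II) at this start, and whether a background of that height kept a Jun-family peak from being called was not tested. At the TGFBR2 start, JunB and Jun were called in both lines. JunB stood at 125 reads over 2.99 in A549 (percentile 98.7) and at 105 reads over 35.3 in B2B (percentile 2.59). Jun stood at 124 reads over 1.51 in A549 (percentile 98.0) and at 109 over 23.9 in B2B (percentile 4.97), and JunD at 44 reads in A549 with no peak in B2B. The backgrounds and list positions of JunB and Jun differed here by more than the pileups, and the part of the background was not tested. At the 5′ end of TGFB1, JunB and JunD were called in A549 without Jun, with 30 and 23 reads at percentiles 1.09 and 9.46.

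CTCF and Rad21, which mark insulators and loop anchors, were called in B2B within 3 kb of all 10 genes, beside 50.1% and 67.9% of all genes. With the 5′ end alone, CTCF was called at 8 genes, without TGFBI and SMAD3, and Rad21 at 10. The shares of all genes under that setting were not computed. At LTBP1 the CTCF peak with the highest fold, with 67 reads, had its summit 328952 bp from the 5′ end, where the Jun summit of B2B lay at 328955 bp. The CTCF peak with the most reads, 141 over 8.99, lay at −526 bp, near the Rad21 peak at −515 bp. At SMAD7 the CTCF peak with the highest fold, with 39 reads, lay at 8233 bp and the Jun summit at 8279 bp. No Rad21 peak overlapped the Jun-family region there or at the internal LTBP1 start. The SMAD7 peaks with the most reads lay near the 5′ end, at 919 bp for CTCF (117 reads over 30.5) and at 908 bp for Rad21 (268 over 19.0).

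Within 100 kb of the start sites, the JunB list gave 100 peaks in A549 and 40 in B2B, the Jun list 127 and 130, and the JunD list 42 and 36. A549 thus held 71.4% of the JunB peaks (95% interval 63.5 to 78.3%), 49.4% of the Jun peaks (43.4 to 55.5%) and 53.8% of the JunD peaks (42.9 to 64.5%). Over the whole lists these shares were 76.6%, 44.1% and 52.9%, and each lay inside the interval of the share around the genes. When both JunB lists were held to the same length, the share around the genes was 56.0%. At least 1 JunB peak was found at 9 genes in A549 and 8 in B2B (82.4% and 46.4% of all genes), at least 1 Jun peak at 10 and 10 (90.1% and 87.4%) and at least 1 JunD peak at 8 and 7 (57.0% and 34.2%). The windows of the genes spanned 212 to 555 kb, with a median of 237 kb against 209 kb over all genes.

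The genes differed in which line had more peaks. More JunB peaks in A549 than in B2B were found at 8 of 10 genes, beside 74.1% of all genes, more Jun peaks at 4 (43.5%) and more JunD peaks at 5 (44.5%). LTBP1 had 15 peaks of JunB, 21 of Jun and 6 of JunD in A549 and 3, 10 and 3 in B2B. In the same order, SKIL had 6, 8 and 2 in A549 and 0, 4 and 0 in B2B. TGFB1 had 5, 8 and 6 in A549 and 1, 6 and 0 in B2B, in a window that also holds the starts of 10 other protein-coding genes. At both receptors Jun and JunD peaks were more numerous in B2B. TGFBR1 had 1, 3 and 0 peaks in A549 and 2, 10 and 2 in B2B, and TGFBR2, where JunB peaks were more numerous in A549, had 9, 13 and 5 in A549 and 3, 22 and 8 in B2B. SMAD3 had the most peaks of the family in both lines, 63 in A549 and 52 in B2B, and INHBA the fewest, with 1 Jun peak of 17 reads in each.

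**Figure D3:**
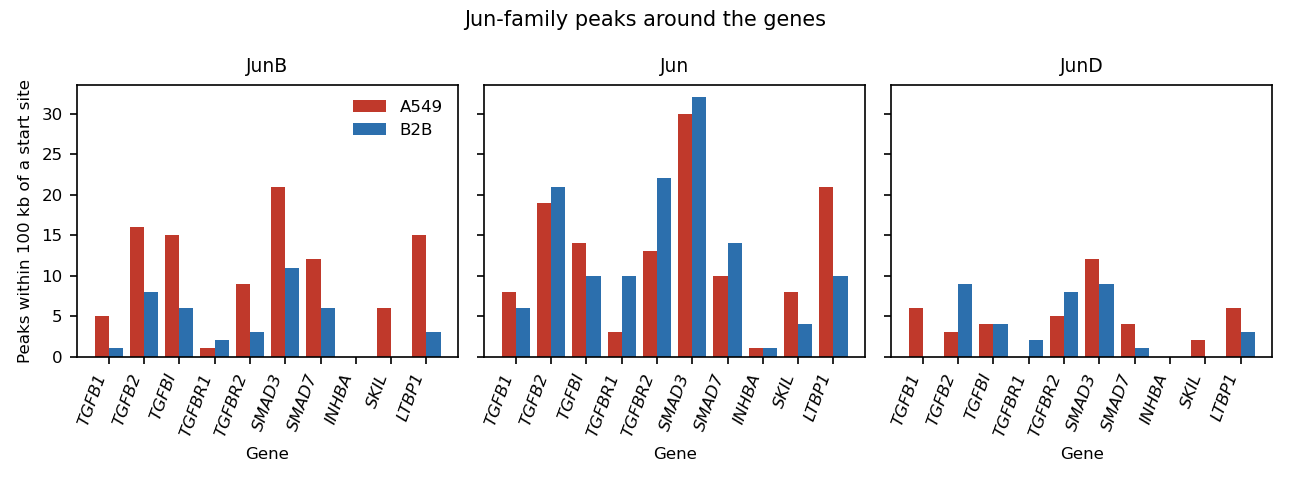
Number of JunB, Jun and JunD peaks within 100 kb of a start site of each gene in A549 (red) and B2B (blue). JunB bars are taller in A549 at 8 of 10 genes, while the Jun bars of TGFBR1 (3 and 10) and TGFBR2 (13 and 22) are taller in B2B.

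Merged over proteins and lines, the peaks formed 196 Jun-family regions, of which 74 were called in both lines, 66 in A549 alone and 56 in B2B alone. The share called in both was 37.8% (31.3 to 44.7%), and 26.5% of 72011 regions over the genome were, which is below that interval. The interval treats regions of the same gene as independent, and the genome also holds regions far from any gene, so this is no test. TGFBR2 shared 12 of its 24 regions, SMAD3 19 of 42 and SMAD7 8 of 18. LTBP1 had 16 regions in A549 alone and 3 in B2B alone, and TGFBR1 had 1 and 9. Of the 196, 82 had their reference summit in an intron and 13 in an exon of the gene itself, and 46 lay between genes. This was the Jun summit of A549, or that of B2B where A549 had no Jun peak. The B2B Jun summit was also taken where the summed fold of all 3 proteins was higher in B2B. Regions without Jun took the peak with the highest fold. A protein-coding start lay within 1 kb of 35.

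**Figure D4:**
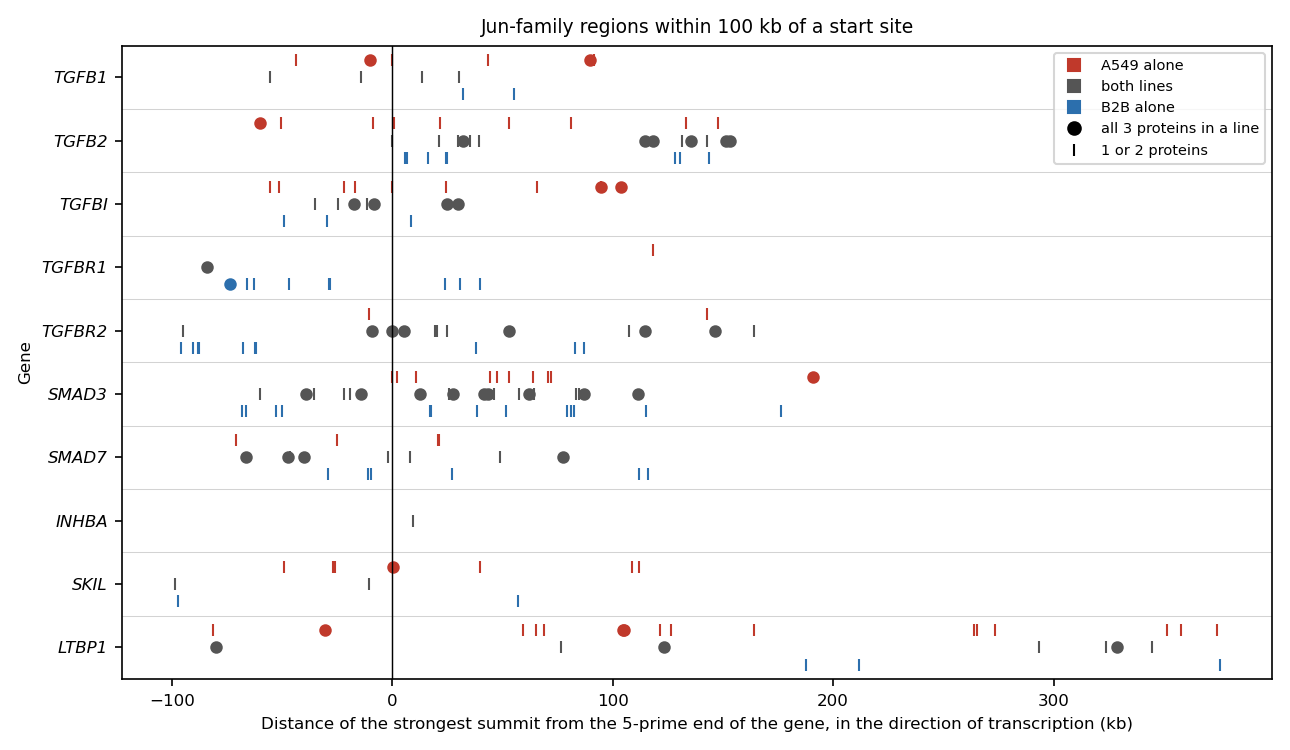
Jun-family regions within 100 kb of a start site of each gene, by the distance (kb) of the reference summit from the 5′ end of the gene in the direction of transcription. The axis label calls this summit the strongest, but it is the Jun summit of 1 line where Jun was called. Red marks regions called in A549 alone, grey in both lines and blue in B2B alone, and round points mark regions with all 3 proteins in at least 1 line. LTBP1 is dominated by red (16 regions against 3), TGFBR1 by blue (9 against 1), and the grey points of SMAD3 fill its introns.

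All 3 proteins met at a minority of these regions. Of 144 regions of A549, 36 carried all 3 proteins, or 25.0% (18.6 to 32.7%), beside 15.2% over the genome, and of 130 regions of B2B, 24 did, or 18.5% (12.7 to 26.0%), beside 9.19%. Both genome shares lay below the intervals. These intervals treat regions as independent, although many belong to the same gene. On the regions merged over both lines, SMAD3 held 10 of the 35 with all 3 proteins in A549. The genome shares also include regions far from any gene, so the comparison is no test of the genes. Jun alone made up 29.9% of regions in A549 and 65.4% in B2B (33.1% and 74.4% over the genome), and JunB with Jun but not JunD 31.9% and 10.0% (30.5% and 6.61%). On the 196 regions merged over both lines, all 3 proteins were called in both lines at 15. Among these, SMAD3 held 6, LTBP1 3, TGFB2 2 and TGFBI 2, and TGFBR2 and SMAD7 held 1 each.

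Several of these regions were among the strongest of their lists. The TGFB2 region chr1:218496469-218497092, in an intron of the non-coding LINC02869 downstream of the gene, had 122 JunB, 184 Jun and 52 JunD reads in A549 and 49, 193 and 64 in B2B, with Jun at percentiles 99.2 and 99.5. A further region, in an intron of TGFB2 itself (chr1:218376984-218377789), reached 191 Jun reads and percentile 100 of the B2B list with all 3 proteins called and a summed fold of 114 (83.6 for the former region in B2B), and had 55 JunB and 56 Jun reads without JunD in A549. SMAD3 carried its strongest region with all 3 proteins in both lines at −39199 bp from its 5′ end (chr15:67024271-67024864), with 161 JunB, 188 Jun and 87 JunD reads in A549 and 74, 161 and 59 in B2B. The SMAD7 region chr18:48873263-48873725, with 2 TGAGTCA copies, gave 87, 88 and 21 reads in A549 and 97, 113 and 30 in B2B. The TGFBR2 region at −9157 bp (chr3:30597121-30597835) gave 80, 147 and 37 reads in A549 and 17, 93 and 20 in B2B. At the SMAD7 region the pileups were higher in B2B, but JunB, Jun and JunD stood at percentiles 98.2, 97.0 and 82.6 in A549 and 93.1, 92.0 and 23.9 in B2B, over backgrounds of up to 2.05 and 6.47 reads. At the TGFBR2 region the percentiles were 95.7, 98.7 and 89.8 in A549 and 42.6, 97.9 and 69.5 in B2B, over backgrounds of up to 2.93 and 2.23 reads. At LTBP1 an intron region (chr2:33069670-33070626) gave 94 JunB and 142 Jun reads in A549 and 13 and 74 in B2B.

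Regions with all 3 proteins in 1 line and no Jun-family peak in the other were fewer. There were 10 in A549 alone, of which LTBP1 had 3, TGFB1 2, TGFBI 2 and TGFB2, SMAD3 and SKIL 1 each. The share of such regions over the genome was not computed, and the JunB list of A549 is the longer, with 28068 peaks against 8563. The numbers of the 2 lines are therefore not read as a trait of these genes. The strongest lay 62304 bp from the nearest TGFBI start, between genes (chr5:136123205-136123762), with 48 JunB, 93 Jun and 28 JunD reads. The SKIL start came next, followed by an LTBP1 intron region (chr2:33051586-33051966) with 73, 52 and 21 reads. The regions of TGFB1, TGFB2 and SMAD3 and the weaker one of TGFBI lay within 1 kb of a start of a neighbouring gene, those of SMAD3 and TGFBI in exons of AAGAB and SMAD5. In B2B there was 1, in an intron of COL15A1 upstream of TGFBR1 (chr9:99030041-99030537), with 147 Jun reads at percentile 99.8 but only 14 JunB and 14 JunD reads.

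Marks were compared over the regions next. Pol II of A549 overlapped 53.0% of regions called in A549 alone (35 of 66) and 7.14% of those called in B2B alone (4 of 56), beside 46.2% and 2.92% over the genome. Pol II of B2B overlapped 24.2% and 21.4%, beside 20.3% and 12.5%. H3K4me3 of A549 overlapped 37.9% and 3.57%, beside 37.1% and 2.59%, and H3K4me3 of B2B 11 of the 66 and 2 of the 56, beside 4903 of 24525 and 1262 of 28379. H3K27ac of B2B overlapped 28.8% and 16.1%, beside 26.2% and 8.09%. Over the genome these marks overlapped more of the regions called in A549 alone, in both lines. Around the genes the intervals of A549 pol II and H3K4me3 lay apart, but those of the B2B marks overlapped. In B2B they were 15.5 to 35.8% and 12.7 to 33.8% for pol II, and 19.3 to 40.6% and 8.69 to 27.8% for H3K27ac. All intervals on marks treat regions of the same gene as independent, although SMAD3 alone held 13 of the 56 regions in B2B alone. Whether intervals lie apart or overlap is therefore no test of which marks differ. H3K27ac of A549, on covered regions, overlapped 23.9% and 2.86%, beside 34.4% and 1.66%. Med1 of A549 overlapped 23.9% and 0%, beside 38.4% and 2.34%, and Med1 of B2B 21.7% and 5.71%, beside 26.9% and 8.85%. CTCF of B2B overlapped 59.5% of regions called in both lines (48.1 to 69.9%), 57.1% of those in B2B alone (44.1 to 69.2%) and 15.2% of those in A549 alone (8.44 to 25.7%). Over the genome these shares were 39.7%, 26.5% and 13.2%. SMAD3 held 19 of the regions called in both lines and 13 of those in B2B alone, and most of these SMAD3 regions overlapped CTCF. The CTCF shares were not computed without SMAD3. The CTCF intervals treat regions of the same gene as independent, and the genome also holds regions far from any gene. The comparison of CTCF with the genome is therefore no test of the genes. Rad21 of B2B overlapped 25.7%, 16.1% and 27.3% of the regions, beside 15.4%, 5.82% and 25.5% over the genome.

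The AP-1 motif TGACTCA or TGAGTCA lay within 50 bp of the summit at 48 of 127 Jun peaks around the genes in A549, or 37.8% (29.8 to 46.5%), beside 42.0% of the whole list. In B2B it did so at 51 of 130, or 39.2% (31.3 to 47.8%), beside 39.8%. JunB summits held it at 45.0% in A549 and 55.0% in B2B, beside 46.2% and 53.6%, and JunD summits at 42.9% and 52.8%, beside 34.2% and 42.8%. Each of these list shares lay inside the interval of the genes' own share. TGACGTCA was found at 1 of the 127 Jun summits in A549 and 2 of the 130 in B2B, beside 621 of 35602 and 428 of 45047 in the whole lists. Around SMAD7, 9 of 14 Jun summits of B2B held the motif, and around TGFBR1 1 of 10.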

How the data were processed

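Each peak list pools 2 replicates of a target in A549 or B2B cells. Per the submitters' processing notes and the paper's methods, reads were aligned by the authors to hg38 (Bowtie2 2.4.4), deduplicated with custom code, pooled over replicates, scaled to CPM (SAMtools 1.13) and passed to MACS2 2.2.7.1. The control and the options of the caller are not given in the sources used here. For each peak the authors deposited a fold enrichment (a ratio), a −log10 p-value, a −log10 q-value and a summit offset, kept at a q-value of 0.01. Input samples were not analysed here. Of 16 lists, 4 end before the last autosome, and genes past an end were left out of that list's counts.

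Start sites came from GENCODE 44. A gene was counted when a peak overlapped the 3 kb window of any start by 1 bp. Pileup and background were solved from fold and p-value, assuming a Poisson background and 1 added read. In a sample of 1000 peaks per list, 100% were recovered within 0.001. Jun-family peaks that overlapped were merged into regions. Motifs were read from hg38 with pysam 0.24.0. Intervals were computed with Python 3.11.15, pandas 2.3.3 and numpy 2.4.6, and plots with matplotlib 3.10.9. On simulated data, 8 of 8 interval counts equalled those of bedtools 2.31.1 and 300 of 300 pileups were recovered. Named genes were all 10 members, and named regions per gene were those with the highest summed fold among regions with all 3 proteins in A549 alone, in B2B alone or in both lines. Others were named after their values were seen, namely ID1, the TGFBR2 start site, the TGFBI and SMAD3 internal starts and the TGFB2 intron region. The 48 other pathway genes were a list by name. Members and lists were chosen with earlier results of these data known. Alternatives tried were a −log10 q of at least 5, windows of 1, 50 and 200 kb, the 5′ end alone, summits in place of intervals, lists of equal length by −log10 p, 50% reciprocal overlap and, chosen after seeing the data, leaving out SMAD3.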

Additional observations from a re-analysis of the deposited data

How the results depend on the processing

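No paired analysis was possible because the authors merged the replicates before peak calling, and for the same reason no replicate could be left out. Of 82 alternative values of 17 results, 75 stayed within the limits set for them (within 1.5 times of a count, or inside the 95% interval of a share), including those without SMAD3. Counts at all 10 genes, as for H3K4me3, had little room to move, and the named genes could change within the limits. At a −log10 q of at least 5, TGFBR2 joined the genes with pol II in A549 alone. For JunD, the genes in A549 alone were then TGFBR2 and SKIL, without TGFB1. No difference in gene counts changed sign, but for peaks within 100 kb the line with more of them did. JunD peaks, 42 in A549 against 36 in B2B as reported, were 25 against 32 (43.9% in A549) without those near protein-coding starts, and Jun peaks, 127 against 130, were 127 against 106 (54.5%) with lists of equal length. The difference between A549 and B2B in genes with JunB at a start site, 2 as reported, was 5 with the 5′ end alone and 0 with lists of equal length. For Jun, 0 as reported, it was 1 at a −log10 q of at least 5, 2 with the 5′ end alone and 1 with lists of equal length. The share of JunB peaks called in A549 was 56.0% with lists of equal length. The share of Jun-family regions called in both lines was 31.1% at 50% reciprocal overlap. Apart from the shorter lists and stricter overlap that these settings impose, the cause was not tested. Merged replicates and an unknown read number leave the error between cultures unmeasured. Near start sites the background was higher in B2B than in A549, which bears on every count there.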
